A study of Mus musculus with 14 samples.

Results

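The imprinted Dlk1-Dio3 locus of mouse chromosome 12 was described through 6 of the 50686 genes in the count table, namely Dlk1, Rtl1, Dio3, Meg3, Rian and Mirg. These genes were chosen by name and place, with earlier results of these data known. RNA was sequenced from 2 lines of mouse embryonic stem cells (ESCs) that carry an Osr1-GFP reporter, in which GFP marks activity of the Osr1 gene. The shDIS3L2 line expresses a short hairpin RNA against Dis3l2, a cytoplasmic exoribonuclease that degrades RNAs with oligouridine tails, and the control shLacZ line expresses a hairpin against bacterial LacZ. Each line was sampled undifferentiated in LIF and 2i (d0) and as embryoid bodies (EBs), aggregates that differentiate spontaneously without LIF and 2i in 15% serum, every second day from d2 up to d12. This gave 14 libraries, 1 per line and day, from 1 line of each kind, and the sources used here do not say whether a line was a clone or a pool. The hairpin and the culture cannot be told apart.

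The locus is controlled by a differentially methylated region that is methylated on the chromosome from the father. The coding genes Dlk1, Rtl1 and Dio3 are expressed mainly from the paternal chromosome, and the noncoding RNAs Meg3, Rian and Mirg from the maternal one. Silencing of the maternal RNAs is known from some cultured pluripotent lines. The counts do not tell alleles apart, so paternal and maternal below name the usual parental origin of a gene and not a measured allele.

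All positions are GRCm38. Dlk1 (ENSMUSG00000040856), a membrane protein related to the Notch ligands, lies at chr12:109452823-109463336. Meg3 (ENSMUSG00000021268), the first long noncoding RNA of the maternal group, lies at chr12:109541001-109571726. Rtl1 (ENSMUSG00000085925), a gene derived from a retrotransposon that is needed in the placenta, lies at chr12:109589194-109600330 on the minus strand, and the other 5 genes lie on the plus strand. Rian (ENSMUSG00000097451), a host of small nucleolar RNAs, lies at chr12:109603940-109661716, and Mirg (ENSMUSG00000097391), a host of microRNAs (miRNAs), at chr12:109729764-109749460. Dio3 (ENSMUSG00000075707), the type III deiodinase that inactivates thyroid hormone, lies at chr12:110279068-110281097.

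From the start of Dlk1 to the end of Dio3, an interval of 828.275 kb, the count table lists 104 genes. The 98 others are short or little counted, with 67 miRNA genes and 23 small nucleolar RNA genes among them. The 6 genes held 332371 reads over the 14 libraries, against 1706 for the others, which is 99.5% of the reads of the interval. RefSeq (GRCm38.p6) places 114 mature miRNAs from 61 genes there. Their seeds, bases 2 to 8, were of 104 kinds, and 10 seeds were shared by a pair. Selection of polyadenylated RNA does not capture mature miRNAs, so reads on miRNA genes here come from longer host RNA.

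The miRNAs that bear on the counts are those encoded opposite the exon of Rtl1, since their host RNA and the Rtl1 mRNA cover the same bases on opposite strands. Of these, 5 are shown with the seed in capitals.
miR-127-3p: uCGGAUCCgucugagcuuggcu
miR-433-3p: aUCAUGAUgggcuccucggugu
miR-434-3p: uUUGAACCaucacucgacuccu
miR-431-5p: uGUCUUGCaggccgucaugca
miR-136-5p: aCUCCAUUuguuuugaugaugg

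Each of the 11 mature miRNAs of the 6 hairpin genes opposite the exon had a fully complementary stretch in the Rtl1 transcript of GENCODE M21, as their position implies. For miR-127-3p the stretch is bases 2642 to 2663 of the transcript, shown with the seed match in capitals.
Rtl1 site: agccaagcucagacGGAUCCGa

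At d0 the 6 hairpin genes, Mir431, Mir433, Mir127, Mir434, Mir432 and Mir136, held 29 reads in the 2 libraries together and Rtl1 held 0. Because the hairpin genes lie wholly inside the Rtl1 exon, counting without regard to strand would have placed each of these reads on both genes or on neither. The Rtl1 counts below are therefore reads of the Rtl1 strand, although the strand setting is not given in the sources used here. Over d6 to d12 the hairpin genes held 12 reads in shLacZ and 21 in shDIS3L2, a ratio of CPM, reads scaled to a common library total, of 1.37 with a 95% counting interval of 0.643 to 3.05. Rtl1 itself held 48 and 250 reads on these days.

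The promoters of Dlk1 and Meg3 are shown because these genes had the highest per-length levels of the paternal and the maternal group at d12. Each runs from 250 bases before to 50 after the gene start in RefSeq, on the plus strand. Capitals mark matches, on either strand, to TATAAA or CCAAT, and GGGCGG and CACGTG were also searched.
Dlk1, chr12:109452573-109452872: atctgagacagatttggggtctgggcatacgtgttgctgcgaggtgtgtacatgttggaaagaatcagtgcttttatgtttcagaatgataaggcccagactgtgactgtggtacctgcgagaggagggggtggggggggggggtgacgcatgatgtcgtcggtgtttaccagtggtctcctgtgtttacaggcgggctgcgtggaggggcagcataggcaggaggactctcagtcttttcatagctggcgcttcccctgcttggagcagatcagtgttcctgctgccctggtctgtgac
Meg3, chr12:109540746-109541045: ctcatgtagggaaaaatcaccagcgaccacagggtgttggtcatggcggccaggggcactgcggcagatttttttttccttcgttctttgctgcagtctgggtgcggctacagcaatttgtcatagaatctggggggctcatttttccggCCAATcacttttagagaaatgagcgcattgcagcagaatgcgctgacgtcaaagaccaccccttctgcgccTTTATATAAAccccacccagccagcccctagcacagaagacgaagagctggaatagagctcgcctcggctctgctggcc

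The Dlk1 window held none of the 4 motifs and 9 CG dinucleotides. The Meg3 window held 13, with a CCAAT match 100 bases before the start and a pair of TATAAA matches on opposite strands, 29 and 25 bases before it, that overlap each other. Of all 32817 promoter windows of this length, 13.6% held TATAAA, 37.4% CCAAT, 35.6% GGGCGG and 7.15% CACGTG, and the median held 7 CG dinucleotides. Letters alone do not show that a factor binds.

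The libraries held from 7178712 to 39888099 reads on genes. Levels are given as CPM, and 3 reads, the floor used here, equal 0.0752 CPM in the deepest library and 0.418 in the shallowest. With 1 library per line and day, a ratio on a day has no replicate check, and its interval, a 95% Clopper-Pearson interval on the reads, covers counting error only. The targeted gene, Dis3l2, had 0.137, 0.281, 0.321 and 0.552 of the control level on the first 4 sampled days and 0.754 at d12. At d8 and d10 its ratio was 0.971 (0.837 to 1.13) and 0.95 (0.788 to 1.15), so no reduction was detectable in the libraries labelled shDIS3L2 on these days, and each direction drawn below from d8 and d10 rests on the label.

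Dlk1 had the largest tested difference of the locus between the lines, and it was higher in shDIS3L2 from d6 on. In shLacZ it measured 0.251, 3.45, 3.48, 11.9, 57.2, 66.7 and 66.4 CPM from d0 to d12. In shDIS3L2 it measured 0.151, 1.59, 2.08, 71.1, 484, 516 and 520 CPM on the same days. From d6 on, every shDIS3L2 library lay above every shLacZ library of any day. Before d6 the shDIS3L2 library was the lower of its pair on each of the 3 days.

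The ratio of shDIS3L2 to shLacZ for Dlk1 was 0.603 (0.138 to 2.09) at d0, 0.461 (0.301 to 0.690) at d2 and 0.597 (0.356 to 1.02) at d4, of which only the d2 interval excludes equal levels. From d6 on it was 5.98 (5.03 to 7.15), then 8.46 (7.92 to 9.05), 7.74 (7.11 to 8.45) and finally 7.82 (7.21 to 8.48). Both lines raised Dlk1 over these days, but at different steps. From d4 to d6 the level rose 34.2-fold (25.1 to 47.7) in shDIS3L2 and 3.41-fold (2.23 to 5.43) in shLacZ. From d6 to d8 the rises were nearer to each other, 6.81-fold (6.33 to 7.35) and 4.82-fold (4.07 to 5.74), and after d8 neither line rose by more than 1.17-fold from 1 sampled day to the next. In RNA of whole EBs, more cells of a type and more RNA per cell cannot be told apart.

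**Figure D1:**
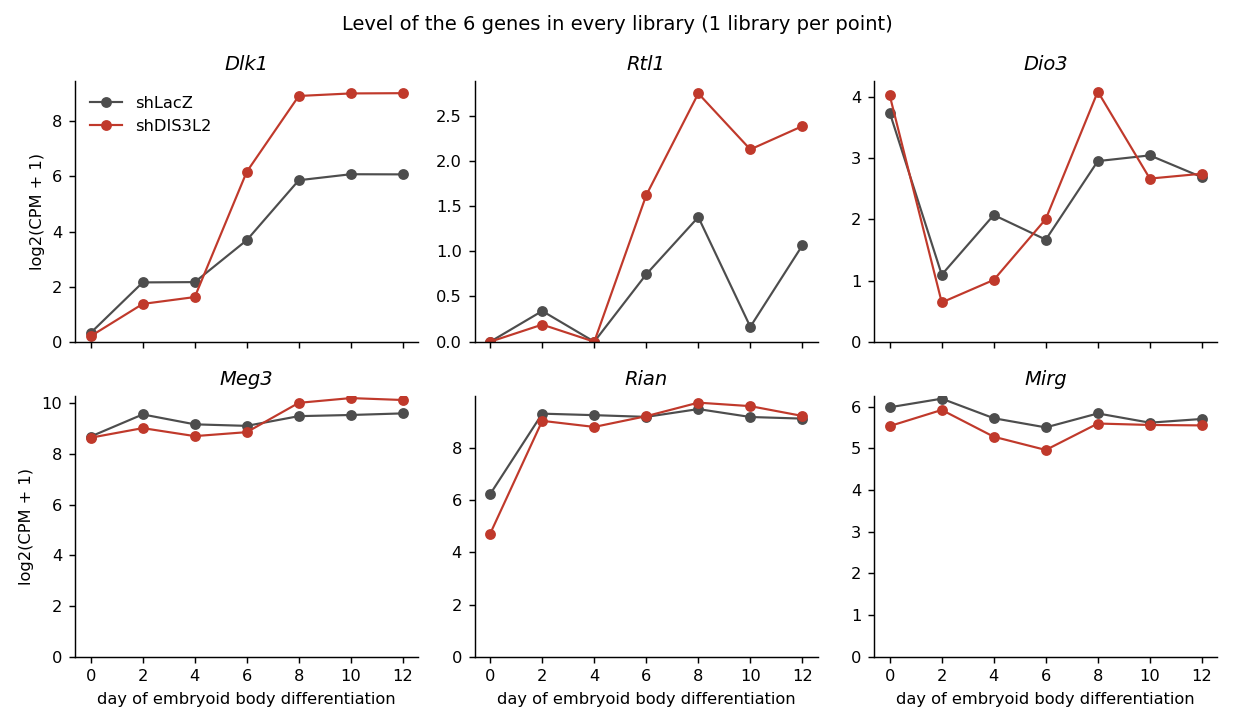
Level of each gene in every library on a log2(CPM + 1) scale against the day, with 1 point per library, shLacZ in grey and shDIS3L2 in red, and a separate vertical scale per panel. Dlk1 and Rtl1 part between the lines from d6, while the ratio of the lines for Meg3, Rian and Mirg stays between 0.680 and 1.59 from d2 to d12.

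Rtl1, the coding gene on the strand opposite the maternal transcripts, was near the limit of detection. Its reads in shLacZ were 0, 7, 0, 9, 27, 1 and 11 from d0 to d12, and in shDIS3L2 0, 3, 0, 22, 112, 71 and 45. The highest level was 1.6 CPM in shLacZ and 5.70 in shDIS3L2, both at d8. The lowest shDIS3L2 level from d6 to d12, 2.07 CPM, was above the highest of shLacZ, so the lines did not overlap on these days. The ratio was 3.07 (1.36 to 7.56) at d6 and 3.57 (2.33 to 5.65) at d8. It was 27.8 (4.83 to 1112) at d10, where shLacZ had 1 read, and 3.86 (1.97 to 8.28) at d12.

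Dio3 followed another course. It measured 12.4, 1.14, 3.20, 2.18, 6.74, 7.26 and 5.45 CPM in shLacZ and 15.3, 0.561, 1.01, 3.02, 16.0, 5.35 and 5.71 in shDIS3L2. Both lines were lowest at d2. The highest library was d0 in shLacZ and d8 in shDIS3L2. The lines overlapped throughout, and the ratio turned from 0.317 (0.167 to 0.599) at d4 to 2.38 (1.91 to 2.97) at d8 and 0.737 (0.534 to 1.03) at d10.

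Meg3 was abundant in every library, undifferentiated cells included. It measured 412, 754, 574, 551, 719, 742 and 775 CPM in shLacZ and 398, 518, 416, 464, 1035, 1178 and 1118 in shDIS3L2. The ratio was 0.968 at d0, 0.687, 0.724 and 0.842 on the next 3 sampled days, and 1.44, 1.59 and 1.44 from d8 on. At d0 its direction depended on the scaling, with a log2 ratio of -0.0469 by library totals, 0.26 by TMM and 0.34 by DESeq2 size factors. On d8 to d12 the lines did not overlap for Meg3, and each ratio was far below the Dlk1 ratio of the same day.

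Rian was low at d0 and high in every EB library. It measured 74.4 CPM in shLacZ and 25.4 in shDIS3L2 at d0, a ratio of 0.341 (0.313 to 0.371). From d2 to d12 it measured 637, 612, 585, 720, 583 and 558 CPM in shLacZ and 526, 447, 596, 854, 778 and 599 in shDIS3L2. The ratio on these days ran from 0.731 at d4 to 1.33 at d10, and the lines overlapped.

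Mirg changed least. It measured 62.4, 72.1, 51.8, 44.3, 56.2, 48.1 and 51.2 CPM in shLacZ and 45.4, 59.6, 37.8, 30.2, 47.4, 46.2 and 45.9 in shDIS3L2. The shDIS3L2 library was the lower of its pair on all 7 days, with ratios between 0.680 at d6 and 0.962 at d10. The intervals of d10 and d12 include equal levels, and the levels of the lines overlapped.

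The libraries of d0 stood apart in composition, with scaling factors of 0.764 and 0.642 by the trimmed mean of M values (TMM) against 0.999 to 1.12 in the other 12. Ratios of d0 moved by up to 0.39 on the log2 scale under other scalings and those of later days by at most 0.10. For Rian at d0 the log2 ratio was -1.55 by library totals and -1.16 by DESeq2 size factors, lower in shDIS3L2 under each.

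**Figure D2:**
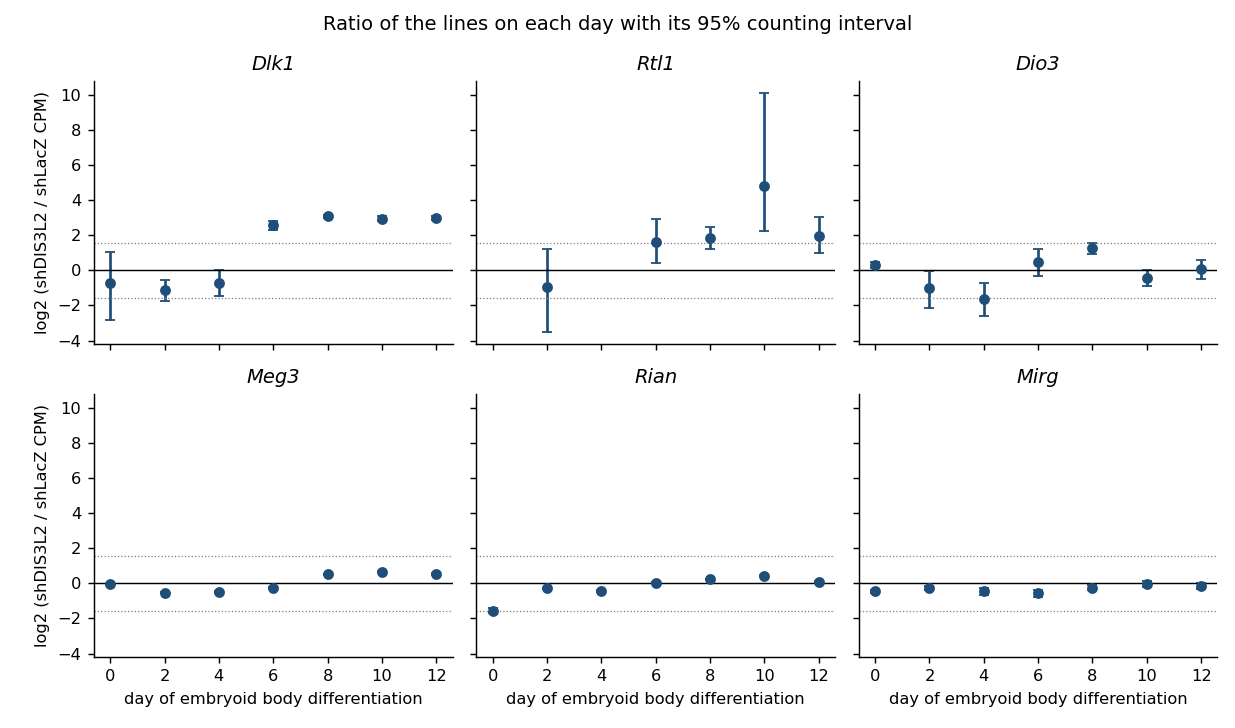
Ratio of shDIS3L2 to shLacZ CPM on each day, on a log2 axis, with 95% counting intervals as bars and dotted lines at 3-fold either way. Dlk1 lies between 5.98 and 8.46 from d6, Rtl1 has wide intervals above equality on the same days, and the 3 maternal RNAs stay between the dotted lines. Rtl1 has no point where both lines had 0 reads.

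A 3-fold criterion was applied on each day to the genes that reached 1 CPM in either library. Dlk1 and Rtl1 were at least 3-fold higher in shDIS3L2 on all 4 days from d6. Dio3 was at least 3-fold lower at d4, and no other member passed 3-fold on any day. The share of all genes at least 3-fold changed either way was, from d0 to d12, 5.12%, 0.371%, 2.14%, 6.67%, 8.84%, 11.1% and 9.03%. Among the genes compared, Dlk1 ranked 67 from the top of 15588 at d6, then 107 of 16091, 310 of 16447 and 263 of 16675.

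The line difference over d6 to d12 was tested with edgeR's quasi-likelihood test with day as a block, which takes the days of 1 series as replicates and so does not test the lines against other cultures. Dlk1 was higher in shDIS3L2 by 2.90 on the log2 scale (SE 0.10, adjusted p = 0.00011, higher on 4 of 4 days) and Rtl1 by 2.12 (SE 0.39, adjusted p = 0.00602, 4 of 4 days). The other 4 genes did not pass, with 0.36 for Meg3 (adjusted p = 0.0951), 0.19 for Rian (adjusted p = 0.116), -0.26 for Mirg (adjusted p = 0.0755) and 0.35 for Dio3 (adjusted p = 0.372). So 2 of 6 members were called, beside 38.3% of all 17164 genes tested, a share near that of the members. Meg3 passed when the libraries of d6 were left out, with 0.56 (adjusted p = 0.00145), and when low genes were not filtered, with 0.37 (adjusted p = 0.0172). Without d8 and d10, on which Dis3l2 was not detectably reduced, the values were 2.77 for Dlk1 (adjusted p = 0.118) and 1.76 for Rtl1 (adjusted p = 0.163), and with 2 days left edgeR called 0 genes in all, with 3149 at an unadjusted p under 0.05.

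Over all 7 days none of the 6 passed in edgeR, beside 5.72% of 20050 genes. Dlk1 measured 1.94 (adjusted p = 0.0666), Rtl1 1.72 (adjusted p = 0.0862) and Mirg -0.31 (adjusted p = 0.0525), each with an unadjusted p under 0.05, and DESeq2 called only Mirg, at -0.27 (adjusted p = 0.024). Without the filter on low counts edgeR called Dlk1 (1.95, adjusted p = 0.0066) and Rtl1 (1.74, adjusted p = 0.0247). Dlk1 passed without d0 (2.14, adjusted p = 0.0496), without d2 (2.42, adjusted p = 0.0201) or without d4 (2.21, adjusted p = 0.0444), Rtl1 without d2 (2.14, adjusted p = 0.0371) and Mirg without d0 (-0.30, adjusted p = 0.0494). The calls over all genes fell from 1147 to 102, 13, 8 and 12 without d6, d8, d10 or d12, and rose to 2189 without d0.

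Whether the line difference itself changed after d4 was tested in 1 fit of both periods, in which 10.1% of 20050 genes were called. Of the 6 only Dlk1 passed, with a change of 3.72 on the log2 scale (SE 0.21, adjusted p = 6.97e-05). The change was 2.85 for Rtl1 (SE 1.24, adjusted p = 0.179), 0.77 for Rian (adjusted p = 0.0555), 0.69 for Dio3 (adjusted p = 0.470), 0.55 for Meg3 (adjusted p = 0.156) and -0.03 for Mirg (adjusted p = 0.932). Without d6 Meg3 also passed (0.74, adjusted p = 0.036), and by DESeq2 Rian did (0.78, adjusted p = 0.00744). Without the filter both Meg3 (0.58, adjusted p = 0.000954) and Rian (0.81, adjusted p = 2.49e-06) passed. Dlk1 passed without any single day, but not in a fit without the day block, which called 0 genes.

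Steps common to both lines were tested between sampled days with the lines as the 2 libraries of a day, again by edgeR. From d0 to d2 Rian rose by 3.02 on the log2 scale (adjusted p = 3.24e-05), Dio3 fell by 4.63 (adjusted p = 9.5e-05) and Rtl1, with 0 reads in both lines at d0 and 7 and 3 at d2, was called higher (adjusted p = 0.0481). The Dlk1 value of this step was 3.30 (SE 1.36, adjusted p = 0.0537), and it passed by DESeq2 (3.14, adjusted p = 0.0183) with library totals (3.95, adjusted p = 0.0298) and without the filter (3.27, adjusted p = 0.011). Mirg passed in this step by DESeq2 alone, at -0.41 (adjusted p = 0.019). These 3 calls of 6 stand beside 65.5% of all genes, as most genes changed on leaving LIF and 2i. Mirg fell by 0.59 from d2 to d4 (adjusted p = 0.0243), beside 17.5% of all genes. From d4 to d6 Rtl1 rose from 0 reads in both lines (adjusted p = 0.0256), beside 13.8% of all genes, and the Dlk1 value was 3.74 (SE 1.11, adjusted p = 0.0504; by DESeq2 3.27, adjusted p = 0.0329, and without the filter 3.74, adjusted p = 0.00443). Without the line block the calls of Mirg (-0.58, adjusted p = 0.146) and of Rtl1 in both steps (adjusted p = 0.132 and 0.112) were lost. The spread of this step holds the difference between the lines. From d6 to d12 none of the 6 passed by edgeR or DESeq2, with Dlk1, Meg3 and Mirg at an unadjusted p under 0.05 in edgeR, beside 7.18% of all genes. Without the filter on low counts edgeR called Dlk1 (2.62, adjusted p = 0.0163) and Meg3 (0.80, adjusted p = 0.0485) in this step.

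Levels of different genes were compared per length, as CPM per kilobase of the gene length in the count table (RPKM). Over d6 to d12 the order by median in shLacZ was Meg3 with 40.4, Rian 33.4, Dlk1 10.9, Mirg 6.8, Dio3 3.0 and Rtl1 0.139 RPKM. In shDIS3L2 it was Dlk1 with 88.4, Meg3 59.5, Rian 39.4, Mirg 6.32, Dio3 2.73 and Rtl1 0.596 RPKM. The ranges over the 4 days overlapped for Meg3 with Rian and Dlk1 with Mirg in shLacZ, and for Dlk1 with Meg3, Meg3 with Rian and Mirg with Dio3 in shDIS3L2. Dlk1 was above Meg3 on 3 of 4 days in shDIS3L2.

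The ratio of the maternal RNAs to Dlk1 joined these levels. The summed RPKM of Meg3, Rian and Mirg over that of Dlk1 fell in shLacZ from 802 at d0 through 144, 120, 33.3, 8.76 and 6.87 to 6.97 at d12. In shDIS3L2 it fell from 1112 through 238, 146, 5.08, 1.31 and 1.27 to 1.11. The ratios of d0 rest on 10 reads of Dlk1 in shLacZ and 4 in shDIS3L2. The size depends on the measure, since at d12 the ratio was 20.8 and 3.39 in shLacZ and shDIS3L2 by CPM without length, and 3.65 and 0.673 with Meg3 alone. The shDIS3L2 ratio was above that of shLacZ on the days before d6 and 0.15 to 0.185 of it from d6 on. For Dlk1 itself, only the d2 interval excludes equal levels before d6. The maternal sum itself, in CPM, was 0.924, 1.30, 1.46 and 1.27 times the control on the 4 days from d6, where Dlk1 was 5.98 to 8.46 times the control. The Dlk1 to Rtl1 ratio of RPKM was 19.7, 40.2 and 68.4 in shLacZ and 38.5, 95.5 and 139 in shDIS3L2 at d6, d8 and d12.

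Within the maternal group the 3 RNAs did not keep 1 proportion. Reads of Rian per read of Meg3 were 0.181 and 0.0637 at d0 in shLacZ and shDIS3L2, rose to 1.07 and 1.08 at d4, and were 0.721 and 0.536 at d12. Reads of Mirg per read of Meg3 fell from 0.152 and 0.114 at d0 to 0.0660 and 0.0410 at d12. From d8 on both ratios were lower in shDIS3L2 than in shLacZ on every day.

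**Figure D3:**
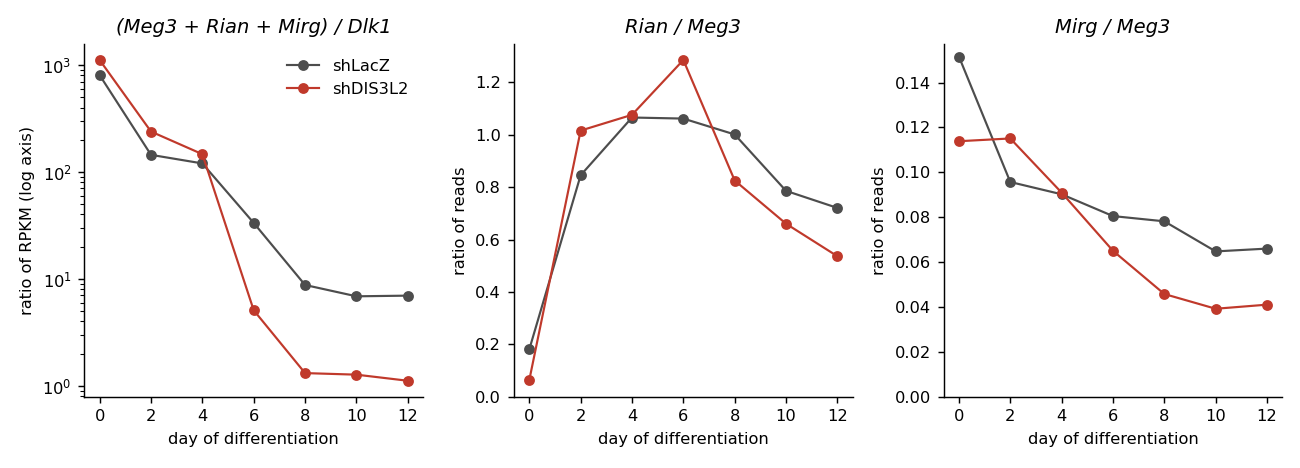
Ratio of the summed RPKM of Meg3, Rian and Mirg to Dlk1 on a log axis (left), and reads of Rian (middle) and Mirg (right) per read of Meg3, against the day, with 1 point per library. The left ratio drops to 1.11 in shDIS3L2 and 6.97 in shLacZ at d12, and the middle and right ratios lie lower in shDIS3L2 from d8.

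Of the other genes between Dlk1 and Dio3, 5 held at least 100 reads over the 14 libraries. The noncoding RNA gene Gm26945, which lies inside the span of Rian, held 542 reads. It had 1 read in each line at d0 and 100 in shLacZ and 51 in shDIS3L2 at d2, a rise from d0 that Rian shared. The small nucleolar RNA genes Gm24564 and DQ267102, also inside Rian, held 134 and 143 reads, with 0 and 1 in each line at d0. Gm37899 held 211 reads, of which 19 in shLacZ and 14 in shDIS3L2 were from d0, and B830012L14Rik 111. The d6 to d12 difference was 0.13 for Gm26945 (adjusted p = 0.689), 0.09 for Gm24564 (adjusted p = 0.855), 0.76 for DQ267102 (adjusted p = 0.144) and 0.04 for Gm37899 (adjusted p = 0.955) by edgeR, and B830012L14Rik had too few reads to be tested.

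Outside the locus, 23 protein-coding genes lay within 1 Mb on either side and 20 were tested over d6 to d12. Of these, 4 were higher in shDIS3L2 (Evl, Begain, Ppp2r5c and Traf3) and 4 lower (Eml1, Wars, Hsp90aa1 and Amn). The median was 0.08 beside 0.02 for all genes tested. The share called was near the 38.3% of all genes called in this test. Begain, the nearest on the Dlk1 side at 384.606 kb, was 3.52-fold (2.19 to 5.89) higher at d8, then 2.72-fold (1.63 to 4.82) and 4.81-fold (3.02 to 7.98), but at d6 the ratio was 0.896 (0.356 to 2.17). Its difference over the 4 days was 1.5 (SE 0.36, adjusted p = 0.0165). Wdr25, the next gene, measured 0.09 (adjusted p = 0.698). Beyond Dio3, Ppp2r5c, a regulatory subunit of protein phosphatase 2A, measured 0.20 (adjusted p = 0.04999) and Dync1h1, the heavy chain of cytoplasmic dynein, -0.02 (adjusted p = 0.820).

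**Figure D4:**
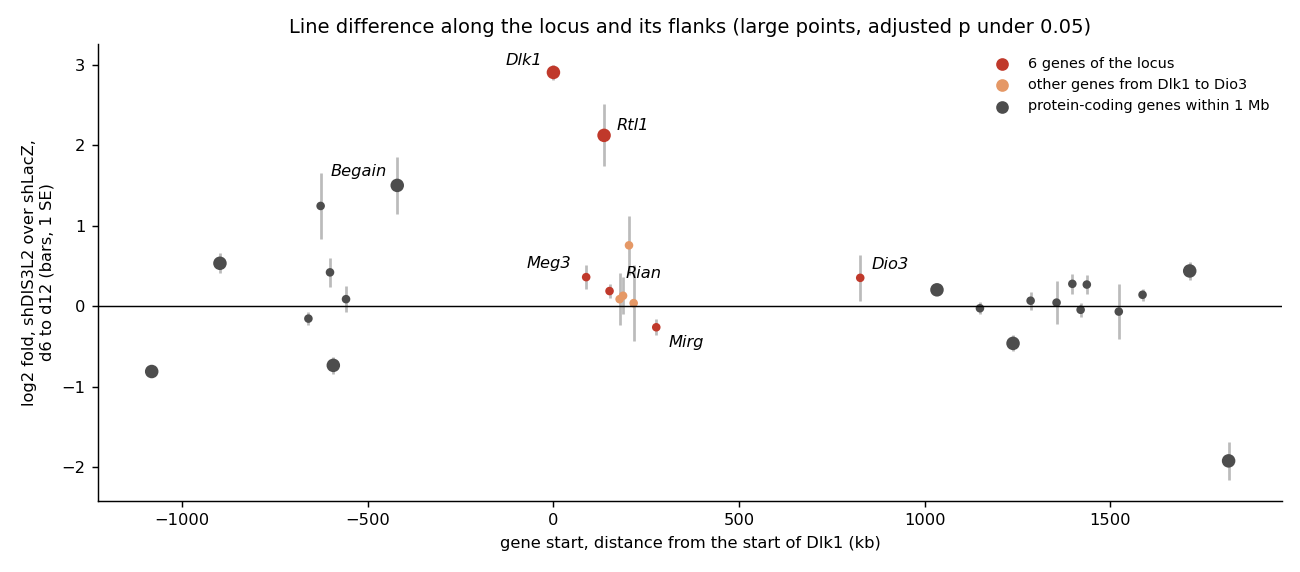
Line difference over d6 to d12, as log2 fold with 1 SE, against the distance of each gene start from that of Dlk1 in kb, for the 6 genes (red), 4 other genes of the interval (orange) and 20 protein-coding genes within 1 Mb (grey), with large points for adjusted p under 0.05. Dlk1 at 2.90 and Rtl1 at 2.12 stand above the genes between and around them.

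Genes elsewhere whose log2(CPM + 1) ran most like that of Dlk1 over the 14 libraries were Tnc (r = 0.991), Fat4 (r = 0.989), Masp1 (r = 0.988), Ebf4 (r = 0.985) and Meis1 (r = 0.985), among 12429 genes with a mean CPM of at least 5. Tnc encodes the matrix protein tenascin-C and Fat4 a large protocadherin. For Rtl1 they were Pgm5, Cygb, Anxa6, Serpinf1 and Scube1, with r from 0.955 to 0.963, and for Meg3 Ptn, Pcdh17, Nell1, Tmtc1 and Cped1, with r from 0.928 to 0.949. These names depend on the measure, since the 5 highest by Spearman's rho shared 1 gene, Tnc, with the list of Dlk1 and 0 with those of Meg3 and Rtl1. Within the locus the r of Dlk1 was 0.907 with Rtl1, 0.853 with Meg3, 0.623 with Rian, 0.284 with Dio3 and -0.312 with Mirg. The points share the time course and the lines, so these values describe likeness of course only.

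Several marker lists also differed between the lines, some higher in shDIS3L2 as Dlk1 was and some lower. In this test over d6 to d12, 38.3% of all genes were called. Of 10 mesenchyme markers, which include Col1a1, Col1a2, Lum and Dcn, 8 were higher in shDIS3L2 over d6 to d12. None was lower and 2 did not pass, with a median of 2.60 over the list. Thy1 measured 5.79, 3.08, 4.96 and 3.57 CPM in shLacZ and 1.98, 1.42, 2.51 and 9.36 in shDIS3L2 from d6 on. Pdgfra measured 204, 303, 422 and 480 CPM in shLacZ and 174, 360, 523 and 628 in shDIS3L2. The summed CPM of all 10 markers was 383, 1567, 1764 and 1351 in shLacZ and 999, 7840, 14462 and 16036 in shDIS3L2 from d6 on. The latter were 2.61, 5.0, 8.20 and 11.9 times the control, and no marker of the list was at 0 on these days. Most of this sum at d12 in shDIS3L2 came from the collagen genes Col3a1, Col1a1 and Col1a2, with 7939, 3539 and 3113 CPM. At d6 the Dlk1 ratio of 5.98 was larger than that of this sum and at d12, at 7.82, smaller. The median log2 ratio of the 10 markers was 1.86 at d6 and 3.17 at d12, beside 2.58 and 2.97 for Dlk1. All 8 visceral endoderm markers, such as Afp and Apob, were lower (median -1.84), with a sum of 2764 to 6811 CPM in shLacZ and 533 to 1916 in shDIS3L2, and 7 of 8 pluripotency markers were lower (median -1.25), with sums of 517 to 632 and 171 to 428 CPM. The part of these cell types in the Dlk1 and Rtl1 differences was not tested.

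The other markers are also to be read beside the 38.3% of all genes called in this test. Of 5 cardiac genes tested 4 were higher, and of 6 endothelial genes 2 were higher. Of 7 neural genes tested 1 was higher and 4 lower, and of 3 trophoblast genes 2 were lower. Skeletal muscle had 1 gene with enough reads to be tested, Acta1, which did not pass. At d8, d10 and d12 its defining factors Myod1, Myog and Myf5 were all at 0 reads in shDIS3L2. In shLacZ on these days Myog was at 0 too, and Myod1 and Myf5 were at 0.121 CPM or less, below the floor.

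Other imprinted genes were set beside the locus. Of 22 such genes, chosen without regard to the parent of origin, 16 were higher in shDIS3L2 over d6 to d12, 4 lower and 2 did not pass, with a median of 0.95 beside 0.02 for all genes tested. Of all genes tested, 38.3% were called. Asb4 (3.67), Zim1 (3.05), Cdkn1c (2.87) and Igf2 (2.87) had the largest log2 differences that passed, close to the 2.90 of Dlk1. Igf2, the paternally expressed growth factor, measured 946, 1100, 779 and 802 CPM in shLacZ and 4835, 7496, 7636 and 6808 in shDIS3L2 from d6 to d12. H19, its maternally expressed noncoding neighbour, was higher by 0.89, and Igf2r and Grb10, expressed from the mother in most tissues, by 1.91 and 2.53. Snrpn (-1.10), Nespas (-0.83), Zrsr1 (-0.45) and Impact (-0.34) were lower. For the change of the line difference after d4, 13 of the 22 passed, all upward, beside 10.1% of all genes tested.

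**Figure D5:**
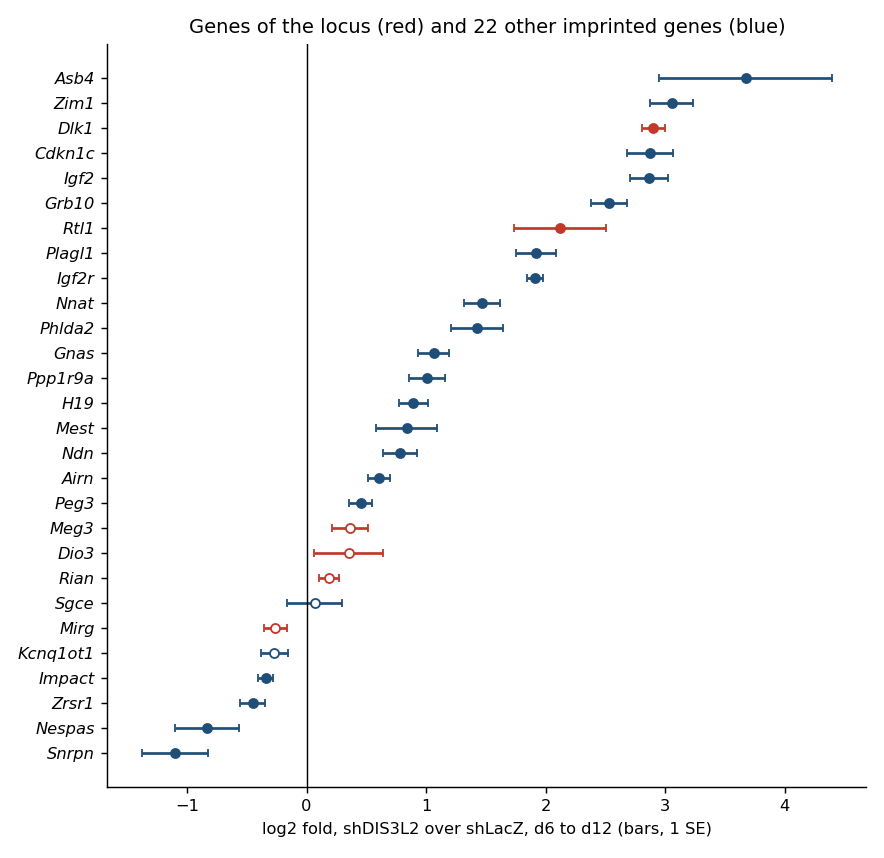
Line difference over d6 to d12, as log2 fold with 1 SE, for the 6 genes of the locus (red) and 22 other imprinted genes (blue), ordered by value, with filled points for adjusted p under 0.05. Dlk1 lies among Zim1, Cdkn1c and Igf2, and Meg3, Rian, Mirg and Dio3 lie near 0 with open points.

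Of 18 regulators of imprints, 3 were higher, 7 lower and 8 did not pass, with a median of -0.19. These calls stand beside 38.3% of all genes tested. Dnmt3l and Dnmt3b, which act in establishing DNA methylation, were lower, with log2 values of -2.38 and -2.35. Dnmt3a, of the same family, did not go with them. It measured 97.0, 185, 174 and 133 CPM in shLacZ and 95.9, 244, 271 and 269 in shDIS3L2 from d6 to d12. Of the enzymes that oxidise methylcytosine Tet1 measured -0.91, Tet2 1.11 and Tet3 0.58 on the log2 scale. Dnmt3l, Dnmt3b and these 3 each passed the test. Zfp57, the zinc finger protein that keeps imprints methylated, measured 0.32 (adjusted p = 0.101) by edgeR.

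Of 16 tested Notch pathway genes and partners of DLK1, 3 were higher, Heyl (2.56), Notch3 (0.59) and Notch2 (0.40), and the ligands Jag2 (-0.81) and Dll1 (-0.74) were lower, with a median of -0.02. The share of all genes called in this test was 38.3%, to be set beside every count of this paragraph. Thyroid hormone genes, beside Dio3, gave 4 higher and 3 lower of 10. Dio2, the deiodinase that activates the hormone, measured 1.83 (SE 0.43, adjusted p = 0.016 by edgeR), the receptor Thra 1.48 and its partner Rxra 0.84, while the carrier Ttr, also in the visceral endoderm list, measured -1.69, and Crym and Klf9 -1.10 and -1.05. Of 7 tested relatives of Rtl1 derived from retrotransposons, 4 were higher, Zcchc5 (2.58), Rgag4 (1.31), Cxx1a (1.24) and Cxx1b (0.87), none was lower, and Peg10, another imprinted gene, measured -0.01 (adjusted p = 0.965). Zcchc5 was near the floor, at 0 in both lines at d6 and later at most 0.484 CPM in shLacZ and 1.59 in shDIS3L2. The 3 Cxx1 genes are near-identical copies, so how reads fell among them is uncertain.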

How the data were processed

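PolyA+ RNA of 14 samples was sequenced on a NextSeq 500. The authors used Subread to align to GRCm38 and featureCounts to assign reads to the genes of Ensembl release 88, and the deposited counts are raw whole reads. A deposited CPM table from edgeR holds 16181 genes, and its values equal the count plus 0.25 over the total of the genes listed. Dlk1, Rtl1 and Dio3 are in that table, and Meg3, Rian and Mirg only in the counts, so all values here come from the counts. Columns named shm5 were read as shDIS3L2 from a table heading of the study. How reads on overlapping genes were treated is not given in the sources used here.

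From the counts, CPM was computed on library totals and RPKM from the length column. Ratios on 1 day carry 95% Clopper-Pearson intervals, which cover counting error only, as no molecular identifiers separate copies made by PCR. A gene was taken as 3-fold changed with a CPM of at least 1 in either library of the day, and counts under 3 were set to the floor of 3. The quasi-likelihood test of edgeR 4.0.16 (R 4.3.3), with TMM scaling, the filterByExpr filter and Benjamini-Hochberg adjustment over all genes tested at 0.05, was fitted over d6 to d12 and over 7 days with day as a block, for the change between the periods, and for steps between days with line as a block. Libraries of successive days of 1 series stand in for replicates, so p-values measure the spread between days. DESeq2 1.42.0, library totals, no filter, no block and leaving out each day were alternatives. The main fits, and those by DESeq2, were also run on simulated counts of independent libraries, for 1 of the steps only. The other alternatives were not simulated. Likeness was Pearson's r on log2(CPM + 1). Sequences are from RefSeq tables of GRCm38.p6, and the Rtl1 transcript is from GENCODE M21, which matched 50462 of 50686 genes. No protein sequence was used here. Python 3.11.15 was used for the rest.

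The 6 genes, the lists and the tests were chosen with earlier results of these data known. Genes named are the 6, other genes of the interval with at least 100 reads, the nearest 2 protein-coding genes on either side, Dis3l2, the 5 most similar genes of Dlk1, Meg3 and Rtl1, and up to 4 called genes per list with the largest differences. Others of the lists and the called genes within 1 Mb were named after their values were seen. The single value of 1 listed gene under this rule is not reported here.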

Additional observations from a re-analysis of the deposited data

Results flagged for a closer look

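For Dlk1 the estimated line difference was of another size and sign up to d4 than after it. Its log2 difference of shDIS3L2 from shLacZ over the 4 days from d6 minus that over the 3 days before was 3.72 (SE 0.21, edgeR's test of the period term, adjusted p = 6.97e-05). All 3 earlier days lay below the control, at ratios of 0.461 to 0.603, and all 4 later days above it, at 5.98 to 8.46. Of the earlier days only d2 had a counting interval that excludes equal levels. Over its 12 alternatives the value ran from 3.56 to 3.84, and it passed in 11. In a fit without the day block it was 3.70 (SE 1.25, adjusted p = 0.99996), and that fit called 0 genes, with 713 at an unadjusted p under 0.05. The Dis3l2 level moved over the same days, from 0.137 of the control at d0 to 0.971 at d8. The summed CPM of the mesenchyme markers was 1.28 times the control at d4, where Dlk1 was below it, and 11.9 times at d12. At d4 Pdgfra alone held 86.8 of the 148 CPM in shLacZ and 146 of the 189 in shDIS3L2. The median log2 ratio of the 9 markers compared at d4 was -0.39. Of these, 3 were at least 3-fold lower and 0 higher, beside 2.14% of all genes changed either way. At d0 the ratio of the sums was 0.521, but the sums were low, 12.1 CPM in shLacZ and 6.31 in shDIS3L2. Prrx1 and Dcn were at 0 in both lines on that day. The part of the Dis3l2 level and of these markers in the Dlk1 change was not tested.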

How the results depend on the processing

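Over d6 to d12 Dlk1 and Rtl1 passed in 8 of 9 alternatives each. The exception was the fit without d8 and d10, chosen after seeing the data, with 2.77 for Dlk1, 1.76 for Rtl1 and 0 genes called. Without the day block 3334 genes were called. Leaving out each day gave 3336 to 6677 calls, 0.26 to 0.56 for Meg3 and -0.0126 to 0.63 for Dio3, and without the filter Meg3 passed at 0.37. Over 7 days the calls were 2522 by DESeq2, 2093 without the filter, 0 without the day block (627 at an unadjusted p under 0.05), 0 without d8 and d10 (1971 at an unadjusted p under 0.05), and 8 to 2189 leaving out each day. The values ran from -0.0260 to 0.20 for Meg3, -0.29 to 0.00192 for Rian and -0.27 to 0.18 for Dio3 leaving out each day, with -0.11 for Meg3 without d8 and d10 and 0.37 for Dio3 without the block. For the change between periods 3279 genes were called without the filter, 24 without d8 and d10, 0 without the block and 524 to 2151 leaving out each day. With library totals 1139 genes were called higher and 415 lower, against 972 and 1051 with TMM. Mirg ran from -0.10 to 0.0678 leaving out each day, 0.14 with library totals and 0.00379 without the filter. The step from d0 to d2 was -0.0516 for Meg3 by DESeq2, -0.00921 without the filter, and 0.30 for Mirg with library totals, which shift the median of all genes in this step from 0.12 to 0.71. From d2 to d4 Dlk1 measured 0.00804 by DESeq2 and 0.0394 without the line block. Without the line block 2170, 1344 and 334 genes were called from d2 to d4, d4 to d6 and d6 to d12, and DESeq2 called 2706 in the last. The 3-fold criterion without a minimum CPM gave 1429 genes at d0, 239 at d2 and 639 at d4. The cause of these differences was not tested. Of the ratios of the 6 genes on single days under other scalings, 101 stayed within their counting interval and 19 moved beyond it, and no 3-fold change turned its direction. Rtl1 had 0 to 7 reads per library before d6, too few to resolve its ratios on those days.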
